A study of Mus musculus with 20 samples.

Results

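Carbonic anhydrases were followed in mouse embryonic fibroblasts exposed to actinonin, as the RNA of 10 genes of the family: Car2, Car4, Car5b, Car6, Car8, Car9, Car11, Car12, Car13 and Car14. They were found among 20145 genes named on the array, through every non-control probe whose RefSeq accession belongs to one of these symbols, which gave 12 probes. Car6 had been chosen by its measured rise against carrier at 24, 48 and 72 h in these same samples, so its values are given as a description with no test, and its paralogs are set beside it. Actinonin, a bacterial product, blocks peptide deformylase, which in bacteria and mitochondria takes the formyl group off the first methionine of new proteins. Total RNA was measured in 20 samples in 5 groups of 4 on 10 Agilent 2-colour arrays, with 1 sample in each channel. The cells were fibroblasts of Balb/c background, grown with 10% serum and added uridine and collected at 90% confluence. The treated groups received 150 µM actinonin for 6, 24, 48 or 72 h, and the controls received the ethanol carrier at 3 µl/ml and are titled 0 h. Each sample pooled 4 plates, and each group had 2 samples in Cy3 and 2 in Cy5. The labels call the 4 samples independent and say no more of how the cultures were started, so a p-value measures the spread between these samples. The labels give no time of harvest for the carrier, so time in culture and time in actinonin cannot be told apart.

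Carbonic anhydrases interconvert carbon dioxide and water with bicarbonate and a proton, and so link respiration to pH and ion transport. The members differ mainly in where they sit. Car2 and Car13 are cytosolic enzymes, Car5b lies in mitochondria, Car4 is anchored to the outer face of the membrane by a lipid, and Car9, Car12 and Car14 span the membrane with the catalytic domain outside. Car6 is the secreted form, known from saliva and milk. Car8 and Car11 keep the fold but have lost catalytic activity. Car9 is a classic target of the hypoxia-inducible factors, and Car6 is known under the older symbol DOC1 as a gene induced under stress downstream of the transcription factor CHOP, through an internal start that yields a form without the secretion signal.

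The start regions of Car6, Car9 and Car11, the members with higher RNA at 24, 48 and 72 h, are shown here as RefSeq gives them in GRCm38.p6, from 250 bases before to 50 after the annotated start, 5′ to 3′ on the gene's strand. The table held 7 of the 10 members, and Car2, Car8 and Car13 had no entry. Capitals mark matches, on either strand, to ACGTG, the core of the hypoxia response element, or to TGATGNAA, the core of the C/EBP-ATF response element. TGCAAT, the C/EBP part of the site known for CHOP dimers, was searched too. Car6 lies at chr4:150201086-150201385 on the minus strand, Car9 at chr4:43506776-43507075 on the plus strand and Car11 at chr7:45699554-45699853 on the plus strand (the first of 2 entries).
Car6: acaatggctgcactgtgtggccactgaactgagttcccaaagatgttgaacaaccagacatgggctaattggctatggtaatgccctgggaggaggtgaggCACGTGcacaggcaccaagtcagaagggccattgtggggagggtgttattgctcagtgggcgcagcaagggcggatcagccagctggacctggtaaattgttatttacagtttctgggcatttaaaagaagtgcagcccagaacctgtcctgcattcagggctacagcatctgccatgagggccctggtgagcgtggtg
Car9: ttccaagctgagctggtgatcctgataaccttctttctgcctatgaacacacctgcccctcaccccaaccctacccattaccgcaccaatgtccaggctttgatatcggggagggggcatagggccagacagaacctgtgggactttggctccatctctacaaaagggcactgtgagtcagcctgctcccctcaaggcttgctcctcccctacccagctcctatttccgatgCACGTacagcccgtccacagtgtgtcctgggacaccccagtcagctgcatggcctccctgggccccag
Car11: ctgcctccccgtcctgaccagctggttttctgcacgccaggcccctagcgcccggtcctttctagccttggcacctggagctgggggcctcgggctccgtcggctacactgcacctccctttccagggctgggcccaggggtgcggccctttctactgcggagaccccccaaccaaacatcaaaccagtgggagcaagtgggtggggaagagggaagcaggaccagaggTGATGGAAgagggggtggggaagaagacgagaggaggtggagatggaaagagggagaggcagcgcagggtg
The Car6 match is a palindrome that reads ACGTG on both strands, with overlapping hits at -149 and -148 from the start. The Car9 match begins at -18, and Car14 and Car4 have matches at -7 and 3. ACGTG was found in 4 of the 8 promoters of members, and in 19.6% of all 32851 promoters of the table. TGATGNAA was found in both entries of Car11, which overlap and share the same bases, and in 3.97% of all promoters. TGCAAT was in none of the members' entries and in 8.40% of all. Only these regions around annotated starts were searched. The internal start of Car6 was not located, so the search says nothing of the bases around it. A match is a description of these letters, not a binding site.

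A probe was called well above background by the scanner software's own flag. Car6, Car5b, Car9, Car11, Car12, Car13 and the brighter of the probes for Car4 had that flag in 20 of 20 samples. Car14 had it in 17 and Car2 in 14, with spot brightness of 66.0 to 191 and 73.0 to 156. Both probes for Car8 were not well above background in any sample, with spot brightness of 58.0 to 104.5, so no change is given for Car8. The second Car4 probe passed in 2 samples and was not used. This left 9 members for the fits, each through 1 probe. Of the 6 other mouse genes of the family, Car1, Car7 and Car15 were measured in all samples, while Car3 passed in 0 samples and Car5a and Car10 in 2 each.

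**Figure D1:**
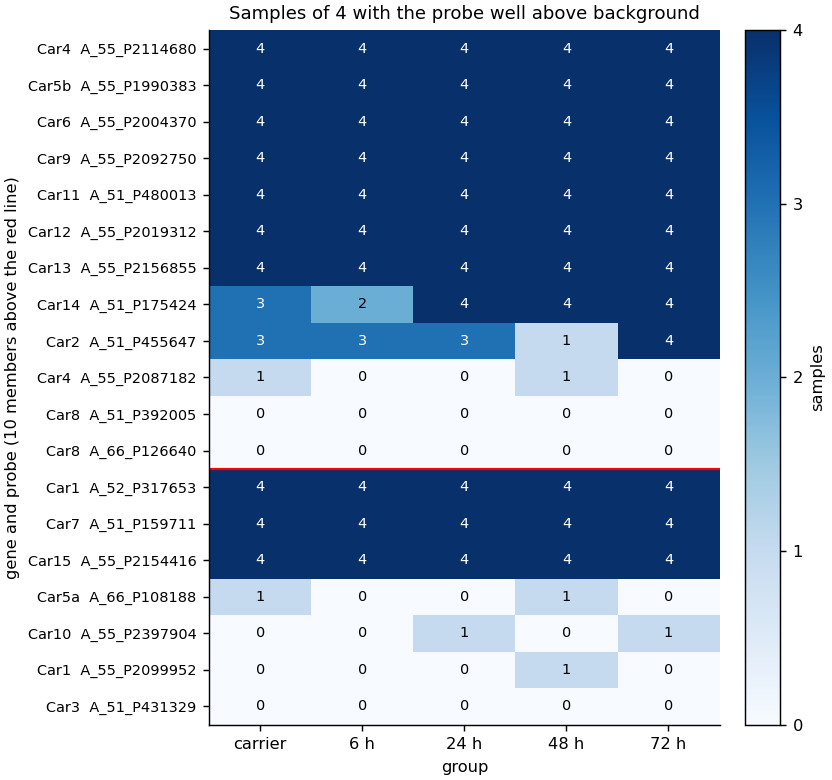
Number of the 4 samples of each group (columns) in which each carbonic anhydrase probe (rows) was flagged well above background. Probes of the 10 members stand above the red line. Both Car8 probes read 0 in every group, and Car2 passed in 1 of 4 samples at 48 h.

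All levels below are log2 signals after background correction and normalization, with the fitted dye and slide terms removed. The 4 values of a group are given in the order replicate 1 in Cy3, 1 in Cy5, 2 in Cy3 and 2 in Cy5. A constant of 50 was added to each signal, so the folds of probes that are dim in a group, such as Car2, Car14, Car9 and, in carrier, Car6, are understated, and levels are compared only within a gene. A gene was called where limma's adjusted p, over all 24250 genes and transcripts tested, was under 0.05. Slide 1 held 2 carrier and 2 of the 6 h samples, and slide 2 held all others, including the other 2 carrier samples. The spots well above background made up 50.8 to 58.7% on 9 arrays and 66.4 and 70.5% in the channels of the last array, which held carrier replicate 2 in Cy3 and 48 h replicate 2 in Cy5.

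Car6 showed the largest difference in the family, with levels 20.4 to 29.1 times that of carrier from 24 h on. The carrier samples read 7.10, 6.61, 7.17 and 7.11, from spot brightness of 90.0 to 155. The 6 h samples read 7.77, 8.39, 7.78 and 7.84, all above every carrier sample. At 24 h the values were 11.23, 11.41, 11.74 and 11.32. At 48 h they were 11.25, 11.20, 11.54 and 11.36, inside the range of the 24 h samples at their upper end and just under it at the lower. At 72 h they were 11.71, 11.92, 11.83 and 11.95, from spot brightness of 2826.5 to 4390. The order of the levels was therefore carrier, 6 h, then 24 h and 48 h, which overlap, and 72 h. The 72 h values lay above all 48 h values and overlapped the 24 h range only at the lowest.

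The fitted change of Car6 against carrier was 0.97 ± 0.13 (log2, SE, n = 4 against 4) at 6 h, a fold of 1.96. It was 4.44 ± 0.16 at 24 h, 4.35 ± 0.14 at 48 h and 4.87 ± 0.16 at 72 h, which are folds of 21.7, 20.4 and 29.1. These folds are understated by the added constant, since the Car6 spot exceeded its local background by only 37.0 to 114 in carrier, against 2785.5 to 4314.5 at 72 h. The step from 6 to 24 h was 3.46 ± 0.16, that from 24 to 48 h was -0.09 ± 0.14, with a 95% interval of -0.39 to 0.22, and that from 48 to 72 h was 0.51 ± 0.14. Among all tested genes and transcripts Car6 had rank 74 for rises at 6 h and rank 2 at 24, 48 and 72 h, which describes the choice of the gene. On slide 1 alone the 6 h difference was 1.23 and on slide 2 alone 0.65. Without 6 h replicate 1 in Cy5 it was 0.78, and without carrier replicate 1 in Cy5 it was 0.82. On slide 2 alone the 72 h difference was 4.70. Which part of the transcript the probe reads was not analysed here, so the secreted and the internal form cannot be told apart.

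**Figure D2:**
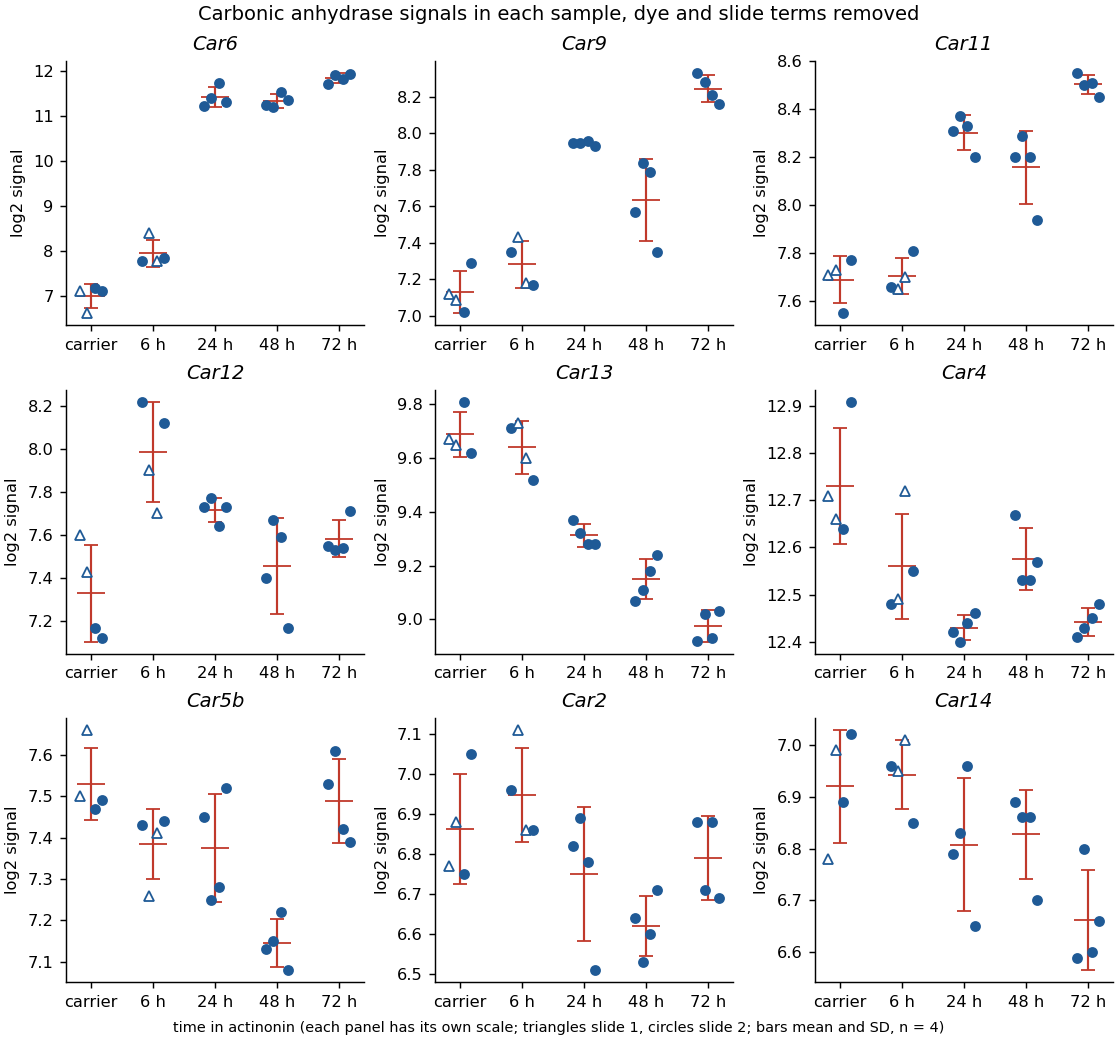
Log2 signal of the 9 measured members (panels, each with its own scale) in each of the 20 samples, by time in actinonin, with the dye and slide terms removed. Points are samples, triangles those of slide 1 and circles those of slide 2, and bars give the mean and SD of 4. Car6 rises from about 7 in carrier to above 11 from 24 h, while Car9 and Car11 rise and Car13 falls by smaller amounts.

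Mean marker levels here cover only the listed genes with a probe well above background in at least 4 of the 20 samples. The cultures carried fibroblast markers throughout, with 10 of 11 well above background in all 4 samples of every group and Lum as the exception. Their mean level was 14.63 to 14.69 in carrier, 14.33 to 14.54 at 6 h, 14.11 to 14.28 at 24 h, 13.76 to 14.01 at 48 h and 14.20 to 14.42 at 72 h, below carrier at every time. The part of that difference in the members' changes was not tested. Of 5 salivary gland markers, Aqp5 was above background in all 20 samples, Prol1, Bpifa2 and Smgc in none, and Amy1 in none of the carrier samples and in all 4 at 72 h. The mean level, without Prol1, Bpifa2 and Smgc, ran from 7.22 to 7.53 in carrier and from 7.17 to 7.36 at 72 h. The part of such cells in the Car6 values was not tested. Of 4 osteoclast markers, listed because osteoclasts are rich in Car2, Ctsk, Acp5 and Oscar were above background in every sample. Calcr was above background in no sample outside the 48 h group. The mean level was 7.32 to 7.53 in carrier and 7.59 to 7.70 at 72 h. Of 6 leukocyte markers with a probe Cd14 and Csf1r were above background in every sample and Ptprc in none. The mean level without Ptprc ran from 8.25 to 8.29 in carrier and from 7.84 to 7.99 at 72 h. Of 6 epithelial markers Krt5 and Krt14 were above in every sample and Krt8 in none, of 4 endothelial ones Pecam1 and Kdr and not Cdh5, and of 4 erythroid ones Epor and not Alas2. In RNA of whole cultures, fewer cells that express a gene and less RNA per cell cannot be told apart.

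Of the 8 other members, 1 was called at 6 h, where 24.8% of all tested genes and transcripts were called (13.7% up and 11.1% down). At 24 h 3 were called higher and 2 lower, against 40.3% called overall (21.2% up and 19.1% down). At 48 h 2 were called higher and 3 lower, against 41.8% (21.5% up and 20.3% down), and at 72 h again 2 and 3, against 47.7% (25.2% up and 22.6% down). The members' median change was 0.01, -0.11, -0.12 and -0.06 at these times, and that of all genes was within 0.01 of 0. With 8 genes these counts are near the overall shares, and they are no result about the family. The values of 1 member lay wholly above carrier and of 1 wholly below at 6 h, where 12.8% and 10.2% of all genes did. At 24 h 3 members were wholly above and 2 below (23.3% and 20.8% of all), at 48 h 2 and 3 (19.4% and 18.4%), and at 72 h 2 and 2 (26.1% and 23.7%). The same carrier samples serve all of these comparisons.

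**Figure D3:**
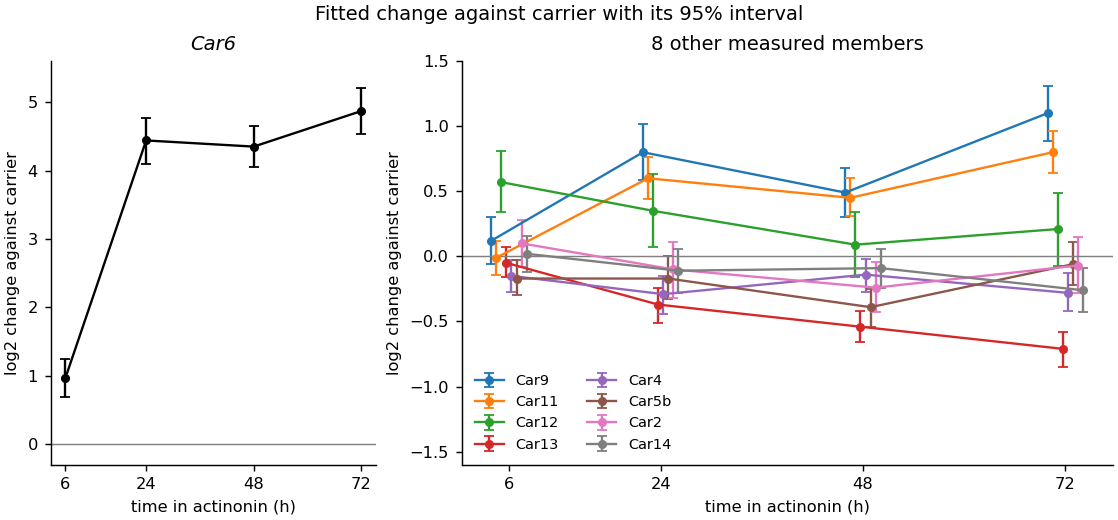
Fitted log2 change against carrier, with its 95% interval, at 6, 24, 48 and 72 h, for Car6 (left) and the 8 other measured members (right, points shifted sideways for legibility, on another scale). Car6 reaches 4.87 at 72 h, and among the others Car9 reaches 1.10 and Car13 -0.71.

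Car9, the membrane enzyme that acidifies the space around hypoxic cells, rose from 24 h on and at 72 h had the second largest change of the 9 measured members. The carrier samples read 7.12, 7.09, 7.02 and 7.29 and the 6 h samples 7.35, 7.43, 7.18 and 7.17, which overlap. The 24 h samples read 7.95, 7.95, 7.96 and 7.93, the 48 h samples 7.57, 7.84, 7.79 and 7.35, and the 72 h samples 8.33, 8.28, 8.21 and 8.16. Every sample of the 3 later times lay above every carrier sample, and the 72 h samples lay above all others. The change was 0.80 ± 0.10 at 24 h (fold 1.74, adjusted p = 5.76e-06), 0.49 ± 0.09 at 48 h (fold 1.41, adjusted p = 0.000216) and 1.10 ± 0.10 at 72 h (fold 2.14, adjusted p = 7.43e-08), and 0.12 ± 0.08 at 6 h (adjusted p = 0.361). At 72 h, 1.15% of all genes and transcripts tested had a rise at least as large. The slide term of Car9 was -0.49 (adjusted p = 0.000658), and without removing it the 48 h and carrier values overlap. Within slide 2 the rise was 0.74, 0.43 and 1.03 at the 3 later times.

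Car11, which encodes a secreted relative without catalytic activity, rose at the same 3 times by less. Its carrier values were 7.71, 7.73, 7.55 and 7.77, and its 6 h values were 7.66, 7.65, 7.70 and 7.81. The 24 h samples read 8.31, 8.37, 8.33 and 8.20, the 48 h samples 8.20, 8.29, 8.20 and 7.94, and the 72 h samples 8.55, 8.50, 8.51 and 8.45. The carrier and 6 h samples overlapped, and all 12 later samples lay above both. The change was 0.60 ± 0.08 at 24 h (fold 1.52, adjusted p = 5.75e-06), 0.45 ± 0.07 at 48 h (fold 1.37, adjusted p = 2.45e-05) and 0.80 ± 0.08 at 72 h (fold 1.74, adjusted p = 1.02e-07). At 6 h it was -0.01 ± 0.06, with an interval of -0.14 to 0.12. The slide term was -0.41 (adjusted p = 0.000265), and with it left in, the 24 h and 48 h values overlap the carrier values. Within slide 2 the rise was 0.61, 0.47 and 0.82.

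Car12, a membrane enzyme of the same outward-facing kind as Car9, had its largest value at 6 h. The carrier samples read 7.60, 7.43, 7.17 and 7.12 and the 6 h samples 8.22, 7.90, 7.70 and 8.12, with no overlap. The later samples read 7.73, 7.77, 7.64 and 7.73 at 24 h, 7.40, 7.67, 7.59 and 7.17 at 48 h and 7.55, 7.53, 7.54 and 7.71 at 72 h. The 48 h samples lay within the carrier range but for the highest. The 6 h change was 0.57 ± 0.11 (fold 1.49, adjusted p = 0.000825). It was 0.28 on slide 1 alone, where it missed the threshold (adjusted p = 0.633, 2 samples against 2), and 0.91 on slide 2 alone. The difference between slides was 0.66 ± 0.17 (adjusted p = 0.41 by limma's interaction term). Over the 8 members, 0 interactions were called and 1 had an unadjusted p under 0.05. Over all 24250 genes and transcripts 7 were called and 1136 had an unadjusted p under 0.05. At 24 h the change was 0.35 ± 0.13 (adjusted p = 0.0458), and the call was lost without 24 h replicate 1 or 2 in Cy5, 24 h replicate 1 in Cy3, or carrier replicate 2 in either dye, with values of 0.20 to 0.34. It was also lost with no scaling between arrays (0.26), no filter on dim probes (0.35) or the replicate block (0.315). The same held without the array with most spots above background (0.27). At 48 and 72 h the change was 0.09 ± 0.12 and 0.21 ± 0.13, neither called, though slide 2 alone gave 0.26 and 0.38, both called.

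Car13, a cytosolic enzyme, was lower than carrier at 24, 48 and 72 h. The carrier samples read 9.67, 9.65, 9.81 and 9.62 and the 6 h samples 9.71, 9.73, 9.60 and 9.52. They read 9.37, 9.32, 9.28 and 9.28 at 24 h, 9.07, 9.11, 9.18 and 9.24 at 48 h, and 8.92, 9.02, 8.93 and 9.03 at 72 h. Carrier and 6 h overlapped, and each later group lay wholly below the one before it. The change against carrier was -0.37 ± 0.06 at 24 h (adjusted p = 0.000162), -0.54 ± 0.06 at 48 h (adjusted p = 5.49e-07) and -0.71 ± 0.06 at 72 h (adjusted p = 5.89e-08), the last a level 1.64-fold lower. Between the later times the 24 to 48 h step was -0.17 ± 0.06 (adjusted p = 0.0772), not called. It was called without the array with most spots above background (-0.19). At 72 h, 3.37% of genes and transcripts had a fall at least as large. These 3 calls held within slide 2, at -0.40, -0.56 and -0.74.

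Car2, the other cytosolic member, lies at the other end from Car13 of a run of 4 family genes on chromosome 3 (Car13, Car1, Car3, Car2). Its probe was dim, and its samples read 6.77, 6.88, 6.75 and 7.05 in carrier and 6.64, 6.53, 6.60 and 6.71 at 48 h. Those 48 h samples lay below all carrier samples, but the probe was well above background in 1 of these 4. The change at 48 h was -0.24 ± 0.09 (adjusted p = 0.046). The call was lost without carrier replicate 1 or 2 in Cy5, or 48 h replicate 1 in either dye or replicate 2 in Cy3, with values of -0.24 to -0.12. It was also lost with no background correction (-0.21), quantile scaling (-0.22) or no filter on dim probes (-0.24). The same held with no array block (-0.25) and with the authors' log2 values (-0.21). At 6, 24 and 72 h the change of Car2 was 0.10, -0.10 and -0.07, none called. Car1 of the same run was not called at any time (0.09 to 0.22), and Car3 was not measurable.

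Car5b, the mitochondrial form, was called lower at 48 h, and at no other time. The carrier samples read 7.50, 7.66, 7.47 and 7.49, the 48 h samples 7.13, 7.15, 7.22 and 7.08, and the 72 h samples 7.53, 7.61, 7.42 and 7.39. The 48 h samples lay below every carrier and every 72 h sample, and the 72 h range covered most of the carrier range. The change was -0.39 ± 0.07 at 48 h (adjusted p = 0.000136) and -0.06 ± 0.08 at 72 h, with an interval of -0.22 to 0.11. From 48 to 72 h it rose by 0.34 ± 0.07 (adjusted p = 0.00209). At 6 and 24 h the change was -0.17 each time (adjusted p = 0.0703 and 0.101). The 6 h samples lay below every carrier sample. The 6 h change was called in 4 of 22 alternatives. These were no scaling between arrays (-0.19), quantile scaling (-0.18), no slide term (-0.18) and the authors' log2 values (-0.16). The 24 h change was called without 24 h replicate 2 in Cy5 (-0.22).

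Car4, the lipid-anchored enzyme, gave a bright signal with small differences. The carrier samples read 12.71, 12.66, 12.64 and 12.91, the 24 h samples 12.42, 12.40, 12.44 and 12.46, and the 72 h samples 12.41, 12.43, 12.45 and 12.48. With the slide term removed the 24 and 72 h samples lay below all carrier samples, and with it left in they overlapped. The change was -0.29 ± 0.07 at 24 h (adjusted p = 0.00241) and -0.28 ± 0.07 at 72 h (adjusted p = 0.00272), levels 1.22 and 1.21-fold lower. Without the slide term in the fit, which was 0.28 for this gene, the values were -0.17 and -0.16 and neither was called. Without scaling between arrays they were -0.24 and -0.22 and again not called, while slide 2 alone gave -0.33 and -0.32, both called. Leaving out carrier replicate 2 in Cy5, the highest carrier sample, gave -0.19 and -0.18, both called. At 6 and 48 h the change was -0.15 and -0.14, neither called. The 6 h change was called in 8 of 22 alternatives, among them the leaving out of 6 h replicate 2 in Cy3 (-0.23), carrier replicate 2 in Cy3 (-0.19) or carrier replicate 1 in Cy5 (-0.20), and slide 2 alone (-0.23). The 48 h change was called without carrier replicate 1 in Cy5 (-0.17) and on slide 2 alone (-0.18). Without carrier replicate 2 in Cy5 the 6 and 48 h values were -0.09 and -0.04.

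Car14, a membrane enzyme best known from brain and eye, was called lower at 72 h. Its carrier samples read 6.78, 6.99, 6.89 and 7.02 and its 72 h samples 6.59, 6.80, 6.60 and 6.66, which overlap at 1 sample of each. The change was -0.26 ± 0.08 (adjusted p = 0.0127). It was -0.10 with no slide term, where it was not called, and -0.21 without carrier replicate 2 in Cy5 (adjusted p = 0.0872). At 6, 24 and 48 h its change was 0.02, -0.11 and -0.09.

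Steps between successive times set the members against treated samples in place of the carrier. From 6 to 24 h 3 of 8 were called, against 32.8% of all genes (16.4% up and 16.4% down), with Car9 (0.68 ± 0.10) and Car11 (0.61 ± 0.08) higher and Car13 (-0.33 ± 0.06) lower. From 24 to 48 h 2 of 8 were called, against 12.1% (5.77% up and 6.36% down), both lower, Car9 by -0.31 ± 0.09 (adjusted p = 0.0365) and Car5b by -0.23 ± 0.07 (adjusted p = 0.0428). The Car9 call was lost without any of 6 of the 8 samples compared (24 h replicates 1 and 2 in either dye, 48 h replicate 1 in Cy3 and 2 in Cy5), with values of -0.32 to -0.21. The Car5b call was lost without any of 7 of them, all but 24 h replicate 1 in Cy5, with values of -0.26 to -0.17. From 48 to 72 h 4 of 8 were called, against 23.2% (12.9% up and 10.3% down). Car9 rose by 0.61 ± 0.09, Car11 by 0.35 ± 0.07 and Car5b by 0.34 ± 0.07. With no slide term the Car11 step was 0.26 and with no scaling between arrays the Car5b step was 0.30, neither called. Car13 was lower by -0.18 ± 0.06 (adjusted p = 0.0385), a call lost without 48 h replicate 2 in either dye, 72 h replicate 1 in either dye or 72 h replicate 2 in Cy3, with values of -0.19 to -0.15. The Car13 call was also lost with no scaling between arrays (-0.14), no slide term (-0.16), no filter on dim probes (-0.18) or the replicate block (-0.18). The same held without the array with most spots above background (-0.15). Wholly above the earlier time were 2, 1 and 3 members in these 3 steps, against 19.5%, 10.9% and 15.7% of all genes, and wholly below were 2, 3 and 2, against 20.1%, 11.1% and 13.8%. At 48 h the means of Car9, Car11 and Car6 all read below those at 24 h, and 48 h replicate 2 in Cy5, which shares the brightest array, was the lowest of its group for Car9, Car11, Car12, Car14 and Car5b and the highest for Car13 and Car2. Without that sample the 24 to 48 h step of Car9 was -0.21.

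**Figure D4:**
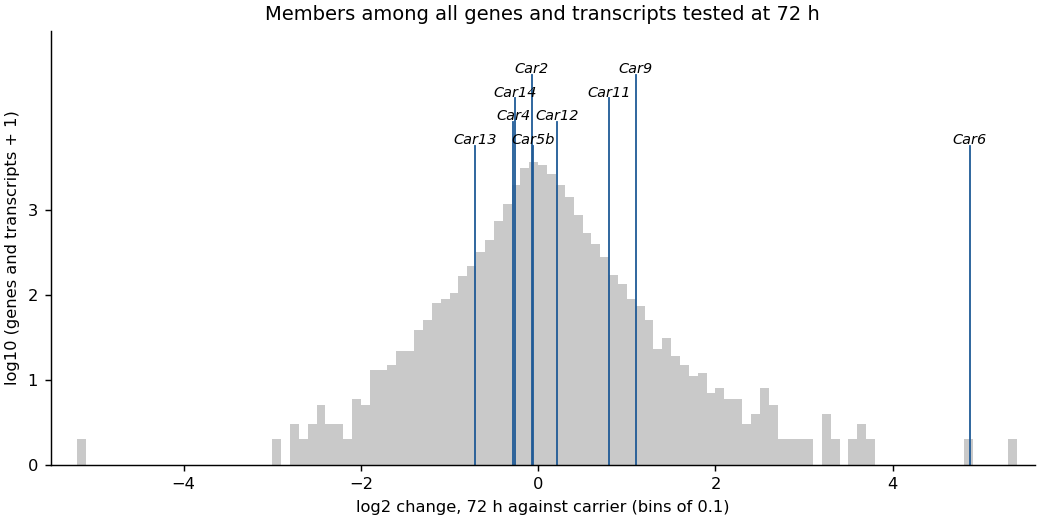
Number of genes and transcripts (log10 of the number plus 1) by their log2 change at 72 h against carrier, in bins of 0.1, with the 9 measured members marked. Car6 stands near the upper end at 4.87, Car9 and Car11 at 1.10 and 0.80 on the upper flank, Car13 at -0.71 on the lower flank and the others near 0.

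Across the 20 samples the members that rose varied together, as a description of samples that share groups and arrays. The values keep the differences between groups, so members that rose at the same times correlate through those differences. The correlation of Car9 with Car11 was 0.957, of Car6 with Car11 0.918 and of Car6 with Car9 0.888. Car13 ran opposite to them, at -0.93 with Car11, -0.904 with Car6 and -0.856 with Car9. Car12 was near 0 with Car6 (-0.02), Car9 (0.0992) and Car11 (-0.00306). The genes most like Car6 over the same 20 values were Trnp1 (0.992), Htra1, a secreted serine protease (0.991), Cdsn, a structural protein of skin cell junctions (0.991), Pla2g12a, a secreted phospholipase (0.989), and Cryz (0.989). Their changes at 72 h were 1.77, 1.66, 5.34, 1.41 and 0.72, so a like pattern went with very different sizes. The nearest to Car9 were Try4 (0.986) and N4bp2l1 (0.984), to Car11 Ak8 (0.986) and Rnft2 (0.98), and to Car13 Tnpo1 (0.977) and Asap1 (0.975). The nearest to Car4 were Fcrl5 (0.966) and Ccdc124 (0.937), to Car12 Ptprr (0.928) and Smim20 (0.89), and to Car14 Cisd2 (0.888) and Ppif (0.869). Those of Car5b were Mpdu1 (0.868) and Cd248 (0.864), and those of Car2 Taf1a (0.756) and Cpa6 (0.744).

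Genes linked to acid and bicarbonate transport were called in both directions. The list also holds lactate carriers, scaffold genes and the water channel gene Aqp1. Of its 27 measured genes, 5 were higher and 6 lower at 6 h, 7 and 8 at 24 h, 6 and 9 at 48 h, and 6 and 6 at 72 h, with medians of -0.05 to -0.02. Over all genes 24.8, 40.3, 41.8 and 47.7% were called at these times. Those higher at 6 h were Slc26a11 (0.58), Slc4a11 (0.36), Slc26a6 (0.32), Hvcn1 (0.24) and Slc9a8 (0.19). The smallest adjusted p-values at 72 h belonged to the proton channel Hvcn1 (1.07 ± 0.07), Slc4a11 (0.99 ± 0.06), the anion exchanger Slc4a3 (0.90 ± 0.06) and Slc26a11 (0.94 ± 0.07). These rises were near that of Car9 in size. The list's largest change at 72 h was a fall, in the water channel gene Aqp1 (-1.18 ± 0.11, adjusted p = 5.08e-08), which was named after its value was seen.

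Because Car9 is a hypoxia target, 24 measured hypoxia-inducible genes were set beside it. At 6 h 6 were higher and 11 lower, at 24 h 7 and 11, at 48 h 10 and 7, and at 72 h 10 and 5, with medians of -0.13, -0.18, 0.03 and 0.03. Over all genes 13.7% were up and 11.1% down at 6 h, 21.2 and 19.1% at 24 h, 21.5 and 20.3% at 48 h, and 25.2 and 22.6% at 72 h. At 72 h Ndrg1 (1.90 ± 0.07), the mitophagy receptor Bnip3 (0.90 ± 0.08) and the pyruvate dehydrogenase kinase Pdk1 (0.76 ± 0.07) were higher. Among the lower genes at that time were Anln (-0.76 ± 0.07), Adm (-0.36), Egln3 (-0.22) and Eno1 (-0.20). Eno1 and Slc2a7 are the protein-coding genes on either side of Car6 on chromosome 4.

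Genes known as CHOP or ATF4 targets were set beside Car6, and of 20 measured, 18 were higher and 1 lower at 6 h, 17 and 0 at 24 h, 18 and 0 at 48 h, and 17 and 0 at 72 h. Over all genes 13.7, 21.2, 21.5 and 25.2% were up at these times. The list's medians were 1.19, 0.94, 0.97 and 0.99. The list was drawn up with results of these samples known, so its direction is no independent evidence. Ddit3, which encodes CHOP, was higher by 1.68 ± 0.08, 1.90 ± 0.10, 2.06 ± 0.09 and 1.93 ± 0.10 at the 4 times. A link between its change and that of Car6 was not tested. Tenm4, a transmembrane protein whose older symbol Doc4 comes from the same screen as DOC1, was lower at 6 h (-0.28 ± 0.08) and higher by 2.47 ± 0.10, 2.05 ± 0.09 and 3.59 ± 0.10 at the later times. At 72 h Vldlr, a lipoprotein receptor, was higher by 2.28 ± 0.11 and Ppp1r15a, a phosphatase subunit that reverses the stress block on translation, by 2.02 ± 0.10.

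The 3 other genes of the family that could be measured changed little. Car7, a cytosolic enzyme, was lower at 24 h (-0.21 ± 0.06, adjusted p = 0.00569) and at 72 h (-0.18 ± 0.06, adjusted p = 0.0133), with a slide term of 0.39. With the dye and slide terms left in, its means were 9.79 in carrier, 9.77 at 24 h and 9.8 at 72 h, and the values overlapped. Car15, a lipid-anchored form, was lower at 72 h (-0.33 ± 0.09, adjusted p = 0.00732). Car1 was called at none of the 4 times.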

How the data were processed

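RNA of 20 samples was measured on 10 Agilent 2-colour arrays. The deposited intensity values are, per the file headers, median spot brightness and local background, not normalized, from Feature Extraction 10.7.3.1 (slide 1) and 11.0.1.1 (slide 2), so slide, scan and software cannot be told apart. The authors' deposited log2 values, used as an alternative, correlated with their own channel at 0.999 to 1, and R 2.15 and limma are among the tools in the submitters' processing notes. Partner samples carry the same array's file, identical in 20 of 20 copies. For arrays, 4 samples a group limits the precision.

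Background was corrected by normexp (offset 50), then loess and Aquantile normalization were applied in limma 3.58.1 (R 4.3.3), and 3671 control spots of 62976 were left out. Both normalizations take most genes as unchanged. On 2695 spots, none of a member, the accession differs between the slides' files, and that of slide 1 was used. Of 28116 probes with a RefSeq accession, 26582 were named through RefSeq's table (GRCm38.p6). Probes well above background in at least 4 samples were kept, and the brightest stood for its gene (24250 tested, 14242 named). Limma was fitted with group, dye and slide terms and the array as a random block (correlation 0.25), two-sided, with Benjamini-Hochberg adjustment over all tested. The fit, without the normalization, was tested on simulated data in which few genes changed, in the 72 h group only. That test does not cover the normalization or data with as many changes as these.

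The members, gene lists, marker lists and tests were chosen with earlier results of these data known. Named are all members, the other family genes, the 4 genes of each list with the smallest adjusted p at 72 h, those behind counts of 5 or fewer (some are not reported here), and the genes of highest Pearson correlation with a member (5 for Car6, 2 for each other). Deviations of samples with the same replicate number and dye correlated at -0.622 to 0.193 (median -0.0352, 40 pairs). Those of other pairs correlated at -0.498 to 0.328 (median 0.00827, 110 pairs). This gives no sign that number and dye together pair the samples, and it cannot show that they do not. Pairs with the same number in different dyes stood among the other pairs, so pairing by number alone was not tested. Alternatives covered background correction, scaling, probe filters, the probe rule, slide, array and replicate blocks, the authors' values and left-out samples; the slide 1 fit was added after seeing the data.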

Additional observations from a re-analysis of the deposited data

Results flagged for a closer look

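In each of 45 groups of 4 values (9 members, 5 groups) the gap of the most distant sample to its nearest neighbour was divided by the group's range, and 6 groups passed the 95% limit for a lone outlying value, where chance alone gives about 1 in 20. Replicate 1 in Cy5 on slide 1 made up 4 of the 6. In the carrier group it read 6.61 for Car6 against 7.10 to 7.17 in the others (share of the range 0.883) and 7.66 for Car5b against 7.47 to 7.50 (0.842). At 6 h it read 8.39 for Car6 against 7.77 to 7.84 (0.891) and 7.26 for Car5b against 7.41 to 7.44 (0.83). Replicate 2 in Cy5 read 7.71 for Car12 at 72 h against 7.53 to 7.55 (0.892) and 6.70 for Car14 at 48 h against 6.86 to 6.89 (0.835).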

How the results depend on the processing

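Over the members' single changes, 1242 values under an alternative kept their direction and side of the threshold or moved by less than 1 SD of replicates, 62 fell short of the threshold, 21 newly passed it, 7 moved by more and 0 reversed a call. Car6 ranged from 4.18 to 4.99 over 24, 48 and 72 h in the 21 alternatives of each. The calls of Car9 and Car11 at 24, 48 and 72 h, Car13 at 24, 48 and 72 h and Car5b at 48 h held in all 21 as well. The number of members called at 6 h (1 of 8) became 2 with no scaling between arrays, no slide term, slide 2 only, the replicate block, or without the array with most spots above background, 3 with quantile scaling or the authors' log2 values and 0 on slide 1 only. Leaving out 1 sample gave 1 to 2. The count at 24 h (5) became 3 with no scaling, and that at 72 h (5) became 3 with no slide term. The count from 24 to 48 h (2) became 0 with no scaling, no filter on dim probes, no slide term or only the 2 groups' samples, 1 with the replicate block or without the brightest array, and 0 to 1 with 1 sample left out. Without the brightest array both calls from 24 to 48 h, Car9 and Car5b, were lost, and Car13 was newly called (-0.19). The count from 48 to 72 h (4) became 2 with no scaling or no slide term. The replicate block changed no count of the other comparisons by over 1.5 times. Since it is not known whether the numbers pair the samples, that block is no measure of a weaker effect. The causes were not tested. The calls over all genes fell with no scaling from 9766 to 6116 at 24 h, from 7963 to 4434 from 6 to 24 h, from 2941 to 339 from 24 to 48 h and from 5624 to 1784 from 48 to 72 h. With no slide term the last 3 became 5275, 846 and 2654. At 6 h the 6023 calls became 29 on slide 1 only and 2745 with only the 2 groups' samples, and without 24 h replicate 2 in Cy5 the 24 to 48 h calls became 1781. Over all alternatives the median of all genes stayed within 0.026 of 0. The CHOP and ATF4 list had medians of 0.87 to 1.35 against carrier, the hypoxia list -0.22 to -0.11 at 6 and 24 h and -0.02 to 0.12 later, and the transport list -0.09 to 0.02. Signals near background limit Car2, Car14 and Car8 most.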
